A study of Homo sapiens with 6 samples.

Results

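SR proteins and heterogeneous nuclear ribonucleoproteins (hnRNPs) are the RNA-binding proteins that dress new transcripts and guide the splicing machinery. SR proteins carry RNA recognition motifs and a tail rich in arginine and serine, and they typically promote the use of the exons they bind. The hnRNPs coat nascent RNA through several kinds of RNA-binding domain and often hold splice sites back, so the balance between both families shapes which exons are kept, and many members tune their own levels through alternative splicing of their own transcripts. The genes were chosen by name alone, as protein coding genes whose symbol is SRSF followed by a number or begins with HNRNP. This gave 37 genes (12 SR protein and 25 hnRNP genes) of the 19881 protein coding genes with a canonical TSS in the annotation. HNRNPUL2 and the readthrough gene HNRNPUL2-BSCL2 start 73 bp apart and share their regions, so the 37 genes stand for 36 separate promoters.

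All samples were U2OS cells, a human osteosarcoma line, collected 2 days after reaching confluence. In ProMMP2-3xHA cells an integrated lentivirus supplied, at all times, the proenzyme of the protease MMP-2 (full-length cDNA) ending in 3 HA epitopes, beside the cells' own MMP-2 gene. WT cells had no tag. Native ChIP-Seq with micrococcal nuclease was done with an HA antibody in ProMMP2-3xHA cells (3 replicates) and with an antibody to H3K4me3, the mark of active promoters, in ProMMP2-3xHA cells (1 library) and WT cells (1 library). No separate HA list of the untagged cells was analysed here, and the names of the replicate lists point to an HA control immunoprecipitation as their background. The study's text describes the 3 HA replicates as independent biological experiments, and the labels number them without naming cultures. The replicate lists held 6401, 9193 and 8933 HA peaks and the list of merged replicates 7216, against 19102 H3K4me3 regions in ProMMP2-3xHA cells and 17130 in WT cells; at the summits the median was 50, 44 and 41 HA fragments. Of 7 mesenchymal and osteoblast marker genes, RUNX2, COL1A1 and SPARC had H3K4me3 in both lines and COL1A2, ALPL, SP7 and BGLAP in neither, while none of 6 blood, neural and liver markers had it and, of 3 epithelial markers, EPCAM had it in WT cells only.

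The promoter stretches that carry the main contrasts are shown first, on the coding strand, 5′ to 3′, from the GRCh37 genome, with capitals marking the searched motifs. SRSF3, SRSF6 and SRSF4 are SR genes with high HA enrichment just downstream of the TSS, HNRNPR is an hnRNP gene with its HA summit upstream, and SRSF12 had H3K4me3 but no HA peak. For the SR genes the stretch is the 120 bases nearest the TSS that overlap no annotated untranslated region, and for HNRNPR the 140 bases around the mean HA summit.
SRSF3, chr6:36562010-36562129 (+): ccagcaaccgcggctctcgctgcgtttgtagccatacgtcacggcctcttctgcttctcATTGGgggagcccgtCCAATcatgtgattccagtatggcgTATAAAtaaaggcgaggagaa
SRSF6, chr20:42086413-42086532 (+): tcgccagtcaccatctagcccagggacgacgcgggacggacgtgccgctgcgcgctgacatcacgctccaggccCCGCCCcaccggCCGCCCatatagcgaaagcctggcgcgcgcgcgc
SRSF4, chr1:29508413-29508532 (-): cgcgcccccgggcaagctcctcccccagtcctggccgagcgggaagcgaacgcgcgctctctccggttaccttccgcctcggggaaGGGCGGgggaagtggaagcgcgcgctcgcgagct
HNRNPR, chr1:23671164-23671303 (-): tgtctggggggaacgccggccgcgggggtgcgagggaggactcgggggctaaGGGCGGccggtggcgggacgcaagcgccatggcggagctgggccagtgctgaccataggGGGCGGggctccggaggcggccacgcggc
SRSF12, chr6:89827791-89827910 (-): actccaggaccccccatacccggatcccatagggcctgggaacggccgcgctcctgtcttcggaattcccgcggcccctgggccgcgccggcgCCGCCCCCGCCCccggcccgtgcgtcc

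The SRSF3 stretch held a TATA box (TATAAA) whose first base lies at position -30 and 2 CCAAT boxes, read on opposite strands, at -70 and -55. The printed stretches of SRSF6, SRSF4, HNRNPR and SRSF12 held GC boxes (GGGCGG or its complement), those of HNRNPR lying far upstream at -474 and -415. SRSF12, without HA, was as GC rich (77.5%) as SRSF4 (74.2%) and richer than SRSF3 (54.2%).

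HA peaks were common at these promoters. A merged HA peak lay within 1 kb of the canonical TSS of 28 of the 37 genes (75.7%, exact 95% binomial interval 58.8 to 88.2), against 30.4% of all protein coding TSSs. The share was 9 of 12 for SR protein genes and 19 of 25 for hnRNP genes. Every replicate list had a peak at 24 of the 37 (background 17.5%), comprising 9 SR and 15 hnRNP genes; replicate 1 had one at 26, replicate 2 at 28 and replicate 3 at 28. The intervals cover counting error only, since neighbouring genes and family members are not independent draws.

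H3K4me3 marked 32 of the 37 promoters in both cell lines, where the background was 61.2% in ProMMP2-3xHA cells and 65.0% in WT cells. Of the 6042 TSSs with a merged HA peak, 5969 had H3K4me3 in both lists, and of all promoters with H3K4me3 in both lists 49.2% had a merged HA peak. Among the members so marked it was 28 of 32 (87.5%, exact interval 71.0 to 96.5), and 24 of 32 had a peak in every replicate (background 28.4%). None of the 5 members without H3K4me3 had an HA peak in any list.

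**Figure D1:**
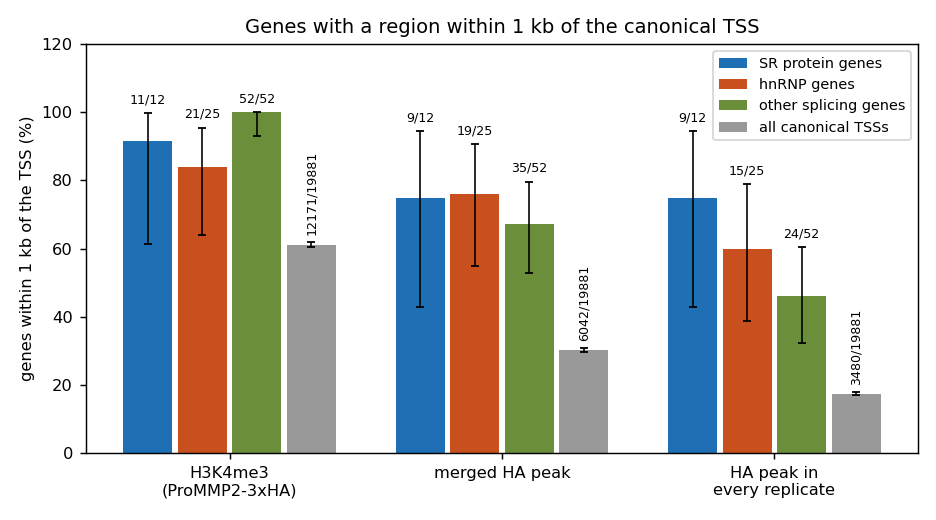
Share of genes (%, vertical axis) with an H3K4me3 region in ProMMP2-3xHA cells, a merged HA peak or an HA peak in every replicate within 1 kb of the TSS, for SR protein genes, hnRNP genes, 52 other splicing genes and all canonical TSSs. Bars are shares with the counts printed above and whiskers are exact 95% binomial intervals; the merged HA share was 9 of 12, 19 of 25, 35 of 52 and 30.4%.

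The SR protein genes had the highest median HA fold enrichment of the 3 sets compared. Fold enrichment is the pileup of HA fragments at the highest summit within 1 kb of the TSS over the control pileup, as the peak caller gave it. Its median over the 9 SR genes with a summit in every replicate was 10.0, 12.8 and 12.4 in replicates 1, 2 and 3 (mean 11.7 ± 1.49, SD, n = 3), whereas over 15 hnRNP genes it was 4.54, 6.83 and 6.17 (5.84 ± 1.18). The 3420 other TSSs with a summit in every replicate had medians of 5.12, 6.56 and 5.58 (5.76 ± 0.732). The SR medians lay above those of the other 2 sets in each replicate without overlap, and the hnRNP medians overlapped those of the other TSSs. Single genes of the 2 families did overlap. SRSF11 had 4.11, 6.90 and 4.72 in replicates 1, 2 and 3, and HNRNPH1 had 13.2, 19.3 and 15.0. No p-value is given, since with 3 replicates an exact sign permutation cannot go below 0.25.

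**Figure D2:**
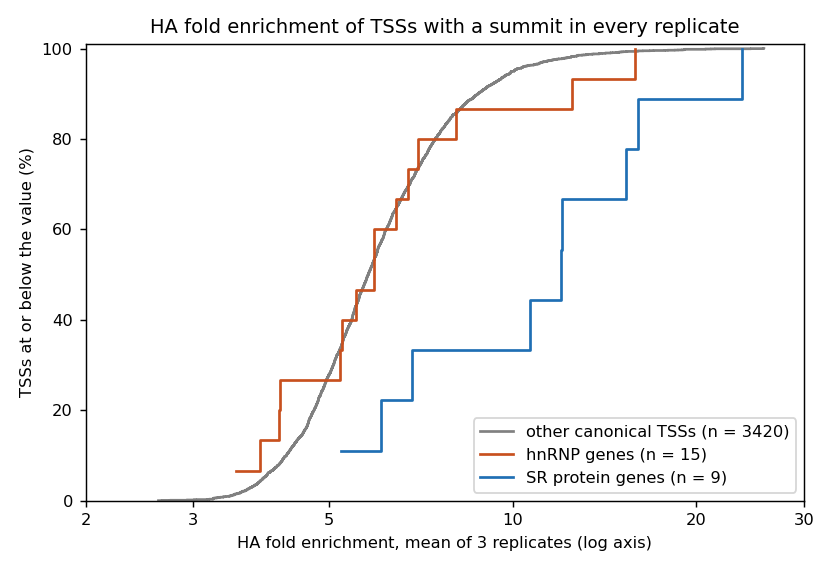
Cumulative share (%, vertical axis) of TSSs with a summit in every replicate against their mean HA fold enrichment over 3 replicates (log axis), for 9 SR protein genes, 15 hnRNP genes and 3420 other TSSs. The hnRNP curve runs along that of the other TSSs, except for its top 2 genes, and the SR curve lies to the right, with 6 of 9 genes above a mean fold of 10.

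SRSF3, a small SR protein that also serves as an adaptor for mRNA export, had the highest enrichment of the family. Its fold was 24.4, 31.5 and 15.4 in replicates 1, 2 and 3 (23.8 ± 8.04, SD, n = 3), rank 3 of the 3444 TSSs with a summit in every replicate. The summits rested on 245, 277 and 136 HA fragments, and with the control held fixed their exact Poisson intervals correspond to folds of 21.5 to 27.6, 27.9 to 35.4 and 13.0 to 18.2. These leave out the error of the control, whose scaled pileup was only 1.86, 2.16 and 2.00, so they are narrower than the full counting error. In all 3 replicates the summit sat at nearly the same base, +80, +84 and +89 from the TSS, within the first exon of 120 bp.

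SRSF2 (SC35), the SR protein long used to mark nuclear speckles, had folds of 13.2, 22.2 and 12.7 (16.1 ± 5.36, rank 20), with replicate 2 above the others. Its TSS lies 788 bp from that of MFSD11, a membrane protein gene, and peaks between them cannot be told apart by gene. SRSF6 reached 10.5, 20.9 and 14.7 (15.4 ± 5.25, rank 27), again highest in replicate 2. SRSF4, SRSF5 and SRSF6 are close relatives with paired RNA recognition motifs, and all of them were strongly enriched. SRSF5 had 10.0, 13.7 and 12.4 (12.0 ± 1.84, rank 85) and SRSF4 7.53, 11.7 and 12.7 (10.7 ± 2.76, rank 135). SRSF7, like SRSF3 an export adaptor, had the closest replicates of these genes, 11.9, 12.8 and 11.5 (12.1 ± 0.667, rank 83). Within replicates SRSF2 was above SRSF7 and SRSF5 in all 3, and SRSF6 was above SRSF5 and SRSF4 in all 3. SRSF2 and SRSF6 changed places between replicates, as did SRSF7, SRSF5 and SRSF4.

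Lower in the family, SRSF1 (SF2/ASF), the founding SR protein, had 6.22, 7.83 and 6.47, its close relative SRSF9 had 6.33, 6.96 and 4.96, and SRSF11 had 4.11, 6.90 and 4.72. Their means over 3 replicates were 6.84, 6.08 and 5.24, near the 5.76 of other TSSs and below those of all 6 SR genes named above.

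Among hnRNP genes only HNRNPH1 and HNRNPA2B1 had a mean fold above 10. HNRNPH1 encodes a protein that binds runs of G and had 13.2, 19.3 and 15.0 (15.9 ± 3.14, rank 25). HNRNPA2B1, of the A/B group that binds exonic silencers, had 8.96, 14.9 and 13.7 (12.5 ± 3.14, rank 66). Its TSS is 999 bp from that of CBX3, which encodes the chromatin protein HP1γ. Fold depends on the control as well. In replicate 2 the HNRNPA2B1 summit rested on 290 HA fragments over a scaled control of 6, and that of SRSF3 on 277 over 2.16. The H1 paralogs were lower: HNRNPF had 6.24, 8.19 and 9.78, HNRNPH3 4.91, 8.26 and 6.17, and HNRNPH2 5.00 and 8.22 in replicates 1 and 2 with no peak in replicate 3.

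The paralogs of HNRNPA2B1 were lower as well. HNRNPA1, the archetypal splicing repressor, had 5.39, 5.38 and 4.97, HNRNPA0 had 4.54, 4.93 and 6.21, and HNRNPA3 3.26, 2.71 and 4.62, the lowest mean of the members ranked (3.53). HNRNPK, which binds C-rich RNA through KH domains, reached 6.08, 8.78 and 6.14. HNRNPL and HNRNPLL, which bind CA repeats, had 3.50, 4.49 and 4.52 and 4.56, 6.24 and 5.85. The remaining ranked hnRNP genes had means from 3.86 (HNRNPR) to 6.75 (HNRNPUL1).

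**Figure D3:**
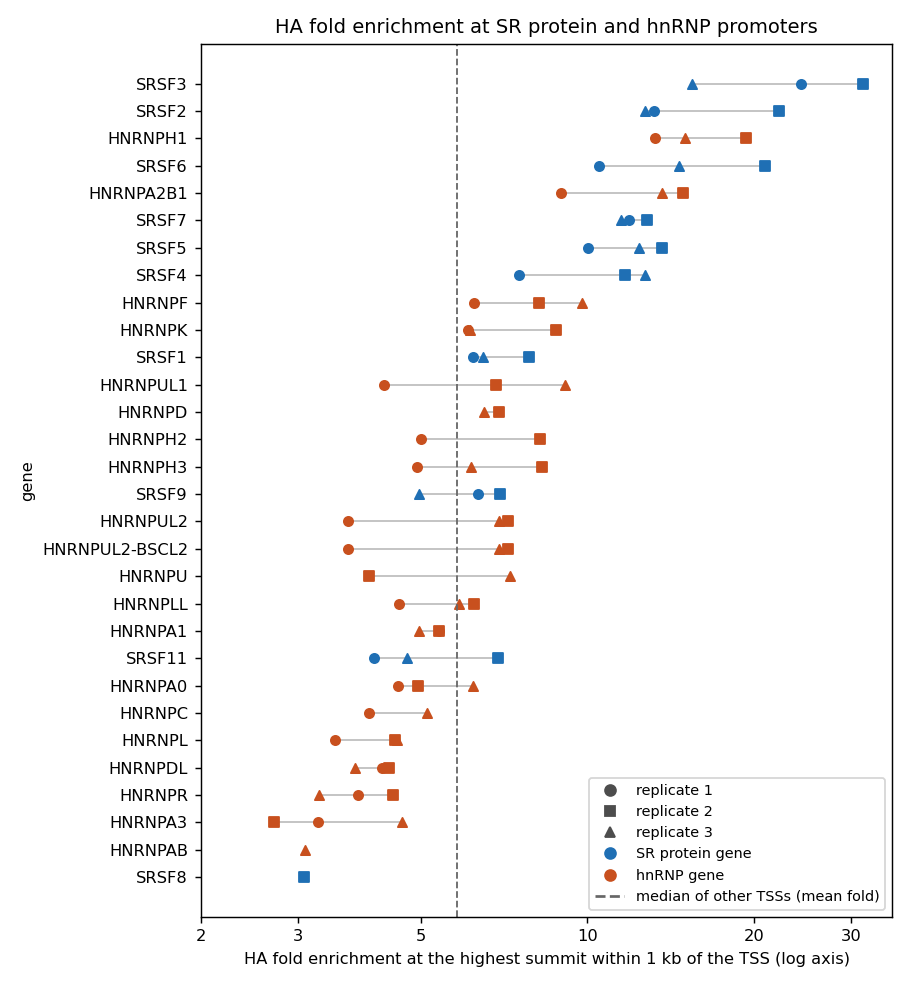
HA fold enrichment (log axis) at the highest summit within 1 kb of the TSS for the 30 genes with a peak in at least 1 replicate, 1 symbol per replicate, SR protein genes in blue and hnRNP genes in orange. The 8 genes from SRSF3 to SRSF4 sit to the right of the dashed line, the median mean fold of the other TSSs (5.81), in every replicate.

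Of the 34 TSSs that make up the top 1% by mean fold, 4 were SR or hnRNP genes (SRSF3, SRSF2, HNRNPH1 and SRSF6), and of the 172 in the top 5%, 8 were. The next 172 TSSs, to the top 10%, added none. The members' folds ran in parallel between replicates: Spearman's rho was 0.894 for replicates 1 and 2, 0.832 for 1 and 3 and 0.901 for 2 and 3 over 23 promoters (HNRNPUL2 counted once), against 0.716, 0.573 and 0.593 over other TSSs. All of these values share the control. The members' mean folds also spread more widely (quartiles 5.25 and 12.0, against 4.90 and 7.10 at other TSSs), and rho was not compared at equal spread. Replicate 1 was the lowest of 3 for 16 of 24 members and replicate 2 the highest for 17.

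HA summits sat downstream of the TSS, where the +1 nucleosome lies. The highest summit was downstream in every replicate at 19 of 24 members, against 43.6% of the TSSs with a summit in every replicate, and at 13 of 24 it lay 1 to 200 bp downstream each time (background 30.8%). The median position was 108, 112 and 117.5 bp in replicates 1, 2 and 3 (112.5 ± 4.77, SD, n = 3) and 65, 78 and 90 bp over other TSSs (77.7 ± 12.5), so the members' median was higher in each replicate. These medians pool upstream and downstream summits, and the distance of downstream summits alone was not compared. Fewer peaks reached over the TSS base itself, where every replicate had one at 13 of the 37 members (background 5.40%).

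At 12 members the highest summits of the 3 replicates lay within 50 bp of each other, a share (12 of 24) near the background of 43.2%. HNRNPH1 (+130, +96, +113), HNRNPA2B1 (+103, +107, +110), HNRNPF (+113, +136, +122), HNRNPA1 (+123, +133, +134), SRSF9 (+141, +139, +150) and SRSF3 all shared this placement. The spot lay inside the first exon at HNRNPA2B1 (175 bp long), SRSF9 (327 bp) and SRSF3, and past its end, in the first intron, at HNRNPH1 (77 bp), HNRNPF (56 bp) and HNRNPA1 (97 bp). A summit was counted as shared where summits of all 3 replicates formed a chain with steps of at most 75 bp. By this count 22 of 37 members had at least 1 (background 14.2%). More than 1 was found at 4 of those 22, near the background of 16.0%.

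The 4 genes were HNRNPA2B1, HNRNPH3, SRSF7 and SRSF1. HNRNPA2B1 had shared summits at means of -494, +107 and +495 bp, with folds of 3.31, 5.44 and 4.52 at the first, 8.96, 14.9 and 13.7 at the second and 5.08, 7.70 and 6.47 at the third. HNRNPH3 had them at -268, +93.3 and +708 bp. SRSF7 had its main summit at +64.3 and another at +730 bp (5.88, 6.34 and 7.21), and SRSF1 had summits at -228 and +117 bp. At SRSF1 the highest of the pair changed with the replicate (-220, +108, -249), although both were found each time.

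At 3 of the 24 members the highest summit was upstream in every replicate, a share whose background over all TSSs was not computed. HNRNPK had its summit at -272, -265 and -284, on the side of RMI1, a gene of the BLM dissolvasome whose TSS is 590 bp away. HNRNPR had folds of 3.85, 4.46 and 3.27 at -464, -424 and -481, the stretch printed above. HNRNPUL1 had its highest summit within 1 kb at -826, -876 and -771, but the same merged peak, 2704 bp wide, held stronger summits beyond the window at -1636, -1625 and -1607 (6.36, 12.2 and 12.6). Across replicates the position of the highest summit within 1 kb moved most at HNRNPA3 (+40, +111, -490), then at HNRNPDL (+662, +363, +741), SRSF1, HNRNPA0 (+140, +405, +143) and SRSF4 (+312, +164, +160). HNRNPDL also had a stronger summit beyond the window in every replicate, at +1145, +1154 and +1113 (5.11, 9.28 and 4.39). At HNRNPA3 (+40, +111, +98), HNRNPDL (+662, +724, +741), HNRNPA0 (+140, +151, +143) and SRSF1 a shared summit was present in all 3 replicates, and which summit was highest changed.

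**Figure D4:**
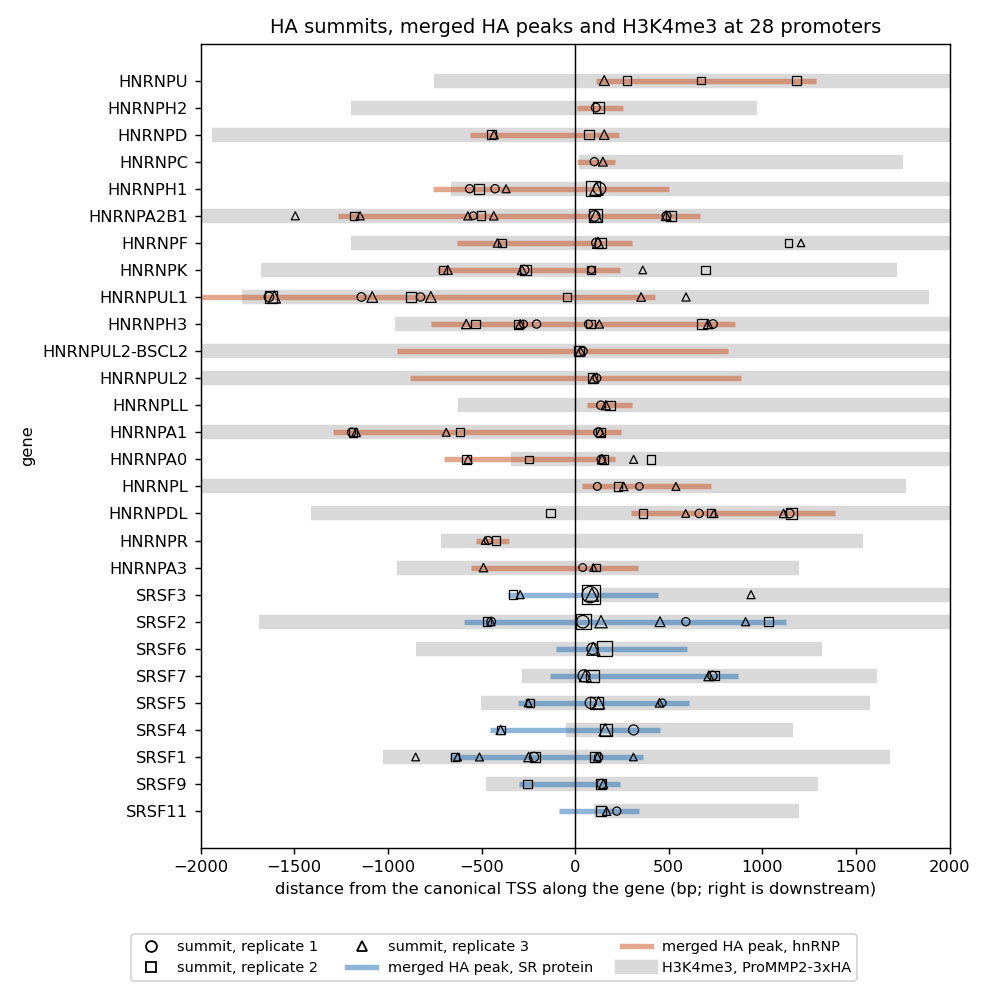
Map of the 28 promoters with a merged HA peak, with distance from the TSS along the gene on the horizontal axis (bp, cut at 2000 on both sides). Open symbols are summits of the 3 replicates, with area rising with fold. Coloured bars are merged HA peaks and grey bars are ProMMP2-3xHA H3K4me3 regions. Large symbols gather just right of the TSS. The highest summits of HNRNPK and HNRNPR lie to the left, with small symbols at HNRNPR, and HNRNPUL1 has large symbols far to the left.

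Merged HA peaks at these promoters were broader than elsewhere, with a median width of 929 bp (lowest 179 at HNRNPR, highest 2704 at HNRNPUL1) against 494.5 bp at other TSSs. After HNRNPUL1 the widest were HNRNPA2B1 (1932 bp), HNRNPUL2 with HNRNPUL2-BSCL2 (1768 bp), SRSF2 (1722 bp) and HNRNPH3 (1627 bp). Only HNRNPUL1 exceeded 2 kb (1 of 28; background 8.23%).

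H3K4me3 regions were also broad. Their median width at the 32 marked members was 2951 bp in ProMMP2-3xHA cells and 3471.5 bp in WT cells, against 1433 and 1871 bp at other TSSs. The hnRNP genes had the broader regions, with medians of 3507 and 4492 bp, and SR protein genes 1896 and 2542 bp, the reverse of their order in HA fold. Over 23 promoters HA fold showed no trend with H3K4me3 width in ProMMP2-3xHA cells (Spearman's rho 0.0316; 0.0789 over other TSSs), whereas merged HA width did (0.596; 0.349). The points share their libraries and controls.

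With 1 H3K4me3 library per line, widths were compared without a test. The region was wider in WT cells at 28 of 32 members, with a median ratio of WT to ProMMP2-3xHA width of 1.27, close to that of other TSSs (1.28). At other TSSs the lower quartile of the ratio was 1.14, so most of them were wider in WT cells too. The ratio reached 1.5 at 5 of 32, background 27.0%. The highest ratios were at HNRNPC (1729 to 3080 bp, 1.78), whose product binds runs of U, at HNRNPH1 (3507 to 5652 bp, 1.61) and at HNRNPA3 (1.58). The lowest were at HNRNPM (1788 to 1692 bp, 0.946), HNRNPUL2 with HNRNPUL2-BSCL2 (0.990) and HNRNPLL (1.00). The SR genes with the highest HA had ratios inside the members' range, 1.30 at SRSF3, 1.10 at SRSF2 and 1.17 at SRSF6.

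**Figure D5:**
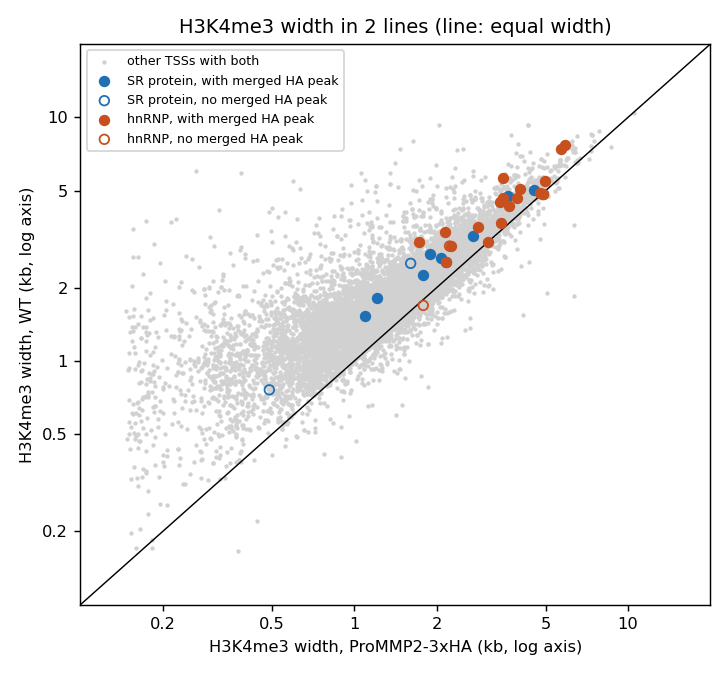
Width of the H3K4me3 region at the TSS in WT cells (kb, vertical log axis) against ProMMP2-3xHA cells (kb, horizontal log axis), with members coloured by family, open symbols for those without a merged HA peak and other TSSs in grey. Most members lie above the line of equal width, as do most other TSSs, and the median ratio was 1.27 for members.

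The other 9 members lacked a merged HA peak, and 4 of them had H3K4me3 in both lines. HNRNPM, a splicing regulator of the epithelial to mesenchymal switch, and SRSF12, a relative of SRSF10, had no HA peak in any replicate. HNRNPAB had a peak of fold 3.08 in replicate 3 only, and SRSF8, an intronless copy of SRSF2, a peak of fold 3.08 in replicate 2 only, at +713 bp. Their H3K4me3 regions were 490 to 2230 bp wide in ProMMP2-3xHA cells, in the lower part of the members' range of 490 to 5900 bp.

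The remaining 5 had neither H3K4me3 nor HA. HNRNPCL1, HNRNPCL2, HNRNPA1L2 and HNRNPA1L3 are copies of HNRNPC and HNRNPA1, and SRSF10 is an SR protein that represses splicing when it is dephosphorylated. For HNRNPCL1 and HNRNPCL2 the 2-kb window around the TSS matched another place in the genome at 95.8% and 95.6% identity, and for HNRNPA1L2 at up to 97.9% over 999 bp. The whole window of SRSF10 matched an unlocalized chromosome 1 scaffold at 99.8%. That scaffold aligned to chr1:24256638-24363223 at 99.2% identity, a stretch of 107 kb with 2 canonical TSSs, those of SRSF10 and PNRC2, and neither had H3K4me3 or HA in any list. The stretch without an H3K4me3 region was longer, 274 kb with 4 canonical TSSs in both lists. The authors removed reads of low mapping quality, which include reads that fit more than 1 place, so no peak can be read as absence at SRSF10; the part of the copies in these blanks was not tested. Of the 33 members without such a copy, 32 had H3K4me3 in both lists and HNRNPA1L3 did not.

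Peaks were found in 2 of 3 replicates at 4 of 37 members (10.8%), near the background of 9.78%. HNRNPU (SAF-A), the scaffold protein of nuclear chromatin, had 4.03 and 7.25 in replicates 2 and 3, HNRNPD (AUF1), which binds AU-rich mRNA, 6.92 and 6.50 in the same replicates, HNRNPC 4.04 and 5.14 in replicates 1 and 3, and HNRNPH2 was given above. All 4 were in the merged list.

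Neighbouring genes share several of these promoters. Another protein coding TSS lay within 1 kb at 11 of 37 members (14.2% of all TSSs), and all 11 had a merged HA peak (52.3% of the TSSs with such a neighbour). Beside MFSD11, CBX3 and RMI1, the neighbours were ENOPH1 at HNRNPDL (128 bp), GLA, the lysosomal alpha-galactosidase gene, at HNRNPH2 (297 bp), CBX5, which encodes HP1α, at HNRNPA1 (604 bp), PBLD at HNRNPH3 (864 bp), an unnamed gene each at SRSF1 and SRSF6, and the HNRNPUL2 pair. At these promoters the HA signal cannot be assigned to either gene.

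Away from the canonical TSS, 2 members had a further merged HA peak that overlapped the gene. The one at HNRNPA2B1, chr7:26218391-26223128, was 4738 bp wide with folds of 3.80, 6.83 and 4.15, lay 19607 bp from the canonical TSS and had no H3K4me3 in either list; it overlaps NFE2L3, the transcription factor gene that runs toward HNRNPA2B1 on the opposite strand. At SRSF11, chr1:70671063-70671438, it spanned the annotated start of the gene, with H3K4me3 in both lists. Its centre lay 115 bp from another coding TSS of SRSF11. The 5′ end of LRRC40, on the opposite strand, lies in the same peak (position 70671262), so this HA signal cannot be assigned to either gene. The peak was found in replicates 1 and 2 only (5.48 and 5.86).

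Base composition overlapped between members with and without HA. The 500 bp around the TSS were 52.6 to 73.0% GC (median 67.7%) at the 28 members with HA and 48.2 to 75.2% (median 71.5%) at the 4 with H3K4me3 only, against a median of 68.0% at all TSSs with H3K4me3. CpG dinucleotides stood at a median of 0.995 of the count expected from base composition at members with HA and 0.961 at those 4. Both were above the median of 0.853 at H3K4me3 promoters. At the 5 members without H3K4me3 the median was 0.370, with a range of 0.0911 to 0.939 and the highest value at SRSF10. For these counts motifs were searched from 250 bp upstream to 50 bp downstream of the TSS on both strands. CCAAT was found at 17 of 28 members with HA, against 37.4% of all TSSs with a merged HA peak and 36.0% of all TSSs. Members without HA had it too, 2 of the 4 with H3K4me3 only and 3 of the 5 without H3K4me3. TATAAA was found at 6 of 28 (SRSF2, SRSF3, SRSF7, SRSF11, HNRNPC and HNRNPD), against 4.95% and 9.62%, and at 1 of the 4 with H3K4me3 only (HNRNPAB). GGGCGG at 21 of 28 was near its backgrounds of 77.6% and 61.4%, as was CCGGAAG at 5 of 28 (23.1% and 14.1%). CACGTG was found at 4 of 28, GCGCATGCG at 2, TCGCGAGA at 1 and TGACGTCA and AAGATGGCG at 0, with 8.76, 2.71, 1.74, 2.68 and 2.85% of all TSSs. At TSSs with a merged HA peak the shares were 11.0, 4.87, 3.67, 4.14 and 4.67%. A match describes letters, not a bound factor.

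The 52 other splicing genes, listed by role, all had H3K4me3 in both lists (so that 49.2% is the background for HA), and 35 (67.3%) had a merged HA peak, while 24 of 52 had a peak in every replicate (28.4% of all TSSs with H3K4me3 in both lists). Their median fold of 5.19, 6.60 and 5.54 in replicates 1, 2 and 3 was close to that of other TSSs. HA was found at 5 of 5 SR-related genes, 3 of 3 U1 genes, 2 of 2 U2 auxiliary factor genes and 8 of 9 hnRNP proteins with other names, at 7 of 11 U2 and 5 of 7 Sm core genes, and at 3 of 8 genes of the U4/U6.U5 particle and 2 of 7 genes for SR protein kinases and import (CLK1 and TNPO3). The highest folds were at TRA2B, an SR-related exon activator (8.71, 14.4 and 14.4), SNRNP70, the U1 subunit that SR proteins contact (9.46, 14.4 and 13.6), PCBP1 (7.80, 14.7 and 10.4), SNRNP40 (7.89, 9.60 and 7.89) and RBMX (5.73, 11.7 and 5.12). The 17 with H3K4me3 and no merged HA peak were CLK2, CLK3, CLK4, SRPK1 and SRPK2, which phosphorylate SR proteins, SNRPF, SNRPD1, SF3B1, SF3B2, SNRPA1, SNRPB2, SNRNP200, PRPF4, PRPF8, EFTUD2, PRPF6 and ELAVL1.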

How the data were processed

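The HA and H3K4me3 peak lists of 5 samples and the merged HA list were used as deposited, on hg19 (GRCh37); no list ended past its chromosome. Per the study's methods and the submitters' processing notes, the authors trimmed reads (Trim Galore 0.6.0), aligned pairs (Bowtie2 2.3.5.1), filtered on mapping quality (SAMtools 1.9), removed duplicates (Picard) and called peaks with MACS2 3.0.0a6. The deposited replicate lists give a score, a fold enrichment (a ratio of HA to control pileup with a pseudocount) and -log10 p- and q-values; merged and H3K4me3 lists, made by the authors by joining narrow and broad calls, give intervals only. Fragment counts behind a summit were recovered from its fold and p-value (94.2, 97.5 and 96.3% of summits resolved), and checked on simulated data.

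Canonical TSSs came from GENCODE 44 lifted to GRCh37; a gene was scored for any region within 1 kb. Fold and position are those of the highest summit within 1 kb. Copies were sought with minimap2 2.31 (at least 95% identity over 200 bp). Genes were named by fixed rules: the 8 highest folds, 5 widest peaks, 3 highest and 3 lowest width ratios, 5 most variable summit positions, every member lacking a mark, in 1 or 2 replicate lists, beside another TSS or with a gene-body peak, and the other splicing genes with the 5 highest folds or without HA. Other members' values were added after they were seen. The members, lists and tests were chosen with earlier results of these data known. Alternatives covered windows, TSS definitions, q-values and leaving out a replicate. Scripts used Python 3.11.15, pandas 2.3.3 and bedtools 2.31.1.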

Additional observations from a re-analysis of the deposited data

How the results depend on the processing

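The 9 summaries were recomputed under 56 alternatives. Of these, 47 stayed within 1.5 times the count, within 1 SD of the replicates or, for the width ratio, unchanged after rounding. The width ratio has no SD, so any change beyond rounding was counted as moved. No sign turned. Asking the peak to cover the TSS lowered the genes with a peak of every replicate from 24 to 13 and the median width ratio from 1.27 to 1.25. A q-value of at most 0.001 raised the median fold from 6.65 to 7.64 and the summit position from 112.5 to 127 bp, with 18 genes left. The 5′ end of the gene as TSS moved that position to 151 bp, and a window of 500 bp to 106 bp. The lists of replicates 1, 2 and 3 gave median widths of 454, 996 and 478 bp, against 266, 595 and 330 bp at other TSSs. Replicates 1 and 3 thus fell below the 929 bp of the merged list. Leaving out 1 replicate gave 25 to 26 genes with a peak in all remaining lists, a median fold of 5.93 to 6.95 and a position of 112 to 118 bp. After the data were seen, members with a near-identical copy were left out (28 of 33 with HA, 84.8%; 32 of 33 with H3K4me3), and HNRNPUL2 with its readthrough was counted once (27 of 36). No paired analysis was possible because the H3K4me3 groups share 1 replicate number and these results come from no test. Lists hold called peaks, so a missing peak says only that none passed the threshold. H3K4me3 and WT values rest on 1 library each, and HA without the tag was not analysed here.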
